A study of Mus musculus with 9 samples.

Results

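Kinesins, intraflagellar transport (IFT) proteins and Bardet-Biedl syndrome (BBS) proteins move cargo along microtubules, and they are described here in mouse testis with and without protamine-2. The members are all rows of the deposited table whose gene symbol begins with Kif or Ift plus a number, with Kifc, or with Bbs plus a number. This rule used no measured value and gave 65 of the 38685 genes and loci in the table. By role, 4 are kinesin-2 motors, 6 are kinesins of cilia and flagella, 4 are C-terminal kinesins, 13 are spindle, chromosome and cytokinesis kinesins and 14 are cargo and other kinesins. A further 3 encode IFT-A subunits, 11 IFT-B subunits, 6 BBSome subunits and 1, Bbs10, a chaperonin-like protein that helps to assemble the BBSome. The last 3 symbols are Kif1bp, which encodes a kinesin-binding protein, and Kif16bos and Ift88os, noncoding transcripts named after their neighbours.

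In an elongating spermatid, the haploid cell that becomes a sperm, a skirt of microtubules called the manchette surrounds the rear part of the nucleus, on the side where the flagellum grows. Kinesin motors carry cargo towards the plus ends of microtubules, C-terminal kinesins walk the other way, and IFT trains of A and B complexes bring building blocks into growing cilia and flagella. The BBSome is a coat of BBS proteins that rides on these trains with membrane cargo, and IFT proteins are also found on the manchette.

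RNA came from whole testes, freed of the tunica albuginea, of C57BL/6 males labelled Prm2+/+ (wildtype), Prm2+/- (heterozygous) or Prm2-/- (deficient), with 3 biological replicates per genotype. The Prm2 lines were made by CRISPR/Cas9 editing in oocytes and were bred as germline lines, so the edited gene is not limited to 1 cell type. According to the paper, protamines are deposited into the DNA during spermiogenesis, the stage at which spermatids become sperm. The age of the males was not given in the sources used here. Libraries were made with QuantSeq, which reads polyadenylated transcripts near their 3′ end. Values are counts divided by 1 size factor per library, called normalized counts below, and each library held 3629929 to 4490411 counts once that division was undone. In bulk testis RNA, fewer cells of a type and less RNA per cell cannot be told apart.

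Some facts of the whole data set touch the members. Prm2 itself had 29716 to 39665 normalized counts in Prm2+/+, 30174 to 34487 in Prm2+/- and 34660 to 42766 in Prm2-/- (LFC 0.20, standard error 0.13, limma adjusted p = 0.746 for Prm2-/- against Prm2+/+), so its level gives no check of the labels. The summed level of 6 elongating spermatid markers lay between 196586 and 218478 in all 9 libraries and came mostly from Prm1 and Tnp1. Marker Akap4 was at 194 to 272 in replicates 1 and 3 of Prm2+/+ and replicate 3 of Prm2+/-, and at 1910 to 2148 elsewhere. Tnp1 had 66174 to 72964 in Prm2+/+ and 62524 to 65668 in Prm2-/-, without overlap. Sums of the elongating and other germ cell, Sertoli, Leydig, macrophage, endothelial and blood marker lists overlapped between Prm2+/+ and Prm2-/-. Round spermatid sums, at 3861 to 4059 in Prm2+/- and 4071 to 4279 in Prm2-/-, did not overlap between these genotypes. Neither did Sertoli sums, at 2449 to 2529 and 2713 to 2959, and the part of these lists was not tested. Peritubular myoid markers (Acta2, Myh11, Tagln and Cnn1) summed to 293 to 325 in Prm2+/+, 254 to 277 in Prm2+/- and 226 to 271 in Prm2-/-, so Prm2+/+ and Prm2-/- did not overlap, and the part of these cells in the results below was not tested. Of the 4 epididymal markers, Gpx5 was at 62.7 in replicate 1 of Prm2+/+ and at 2.97 or below elsewhere, Crisp1 and Defb42 did not exceed 3.65 and 2.11, and Lcn5 was at 0 in all 9 libraries, as was the Sertoli marker Amh. Replicate 3 of Prm2+/+ stood apart: it held the lowest or the highest of the 9 values in 50.6% of all tested genes and in 49.1% of the tested members. Replicates 2 and 3 of Prm2-/- did so in 29.8% and 36.8% of the tested members, beside 17.4% and 22.3% of all tested genes. Replicate 2 of Prm2+/+ was also above its share of all tested genes, and the remaining libraries were below theirs.

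The question was whether testes without protamine-2 differ in the transcripts of this transport machinery. Genotypes were compared with limma on log2(normalized count + 1), so that a log2 fold change (LFC) is a difference on that scale and understates changes of low genes. A gene was called at an adjusted p under 0.05 over all tested genes and an LFC beyond 0.5 in either direction. Counts were high enough for a test in 57 of the 65 members and in 14893 genes in all. The 8 members without a test were Kif3c, Kif19a, Kifc1, Kif20a, Kif12, Kif13b, Kif26b and Ift88os.

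Between Prm2-/- and Prm2+/+, 0 of the 57 tested members were called, against a background of 0.154% of all tested genes called higher and 0.0269% called lower. At an unadjusted p under 0.05 there were 6 members, namely Kif3a, Ift88 and Bbs1 with higher and Kif2a, Kif15 and Kif13a with lower means in Prm2-/-. That is 3 higher and 3 lower of 57, beside 3.97% higher, 3.36% lower and 7.33% in either direction of all tested genes. edgeR counted 5 members at this level, beside 1027 of 14893 tested genes. DESeq2 counted 4, or 5 with only the 6 samples compared, beside 893 or 1078 of 14893 tested genes. Neither called any member (0). DESeq2 called more of all tested genes than limma, 101 higher and 30 lower, or 169 and 66 with only the 6 samples compared. The median LFC was 0.02 over the tested members and 0.02 over all tested genes. The 3 libraries of each genotype did not overlap for 6 members, 1 higher (Kif3a) and 5 lower (Kif13a, Kif20b, Kif3b, Kif15 and Kif2a) in Prm2-/-, beside 6.92% higher, 7.1% lower and 14% in either direction of all tested genes.

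Between Prm2+/- and Prm2+/+, 0 members were called (background 0.0604% higher and 0.0201% lower), and 0 members had an unadjusted p under 0.05 in limma, edgeR or DESeq2, beside 4.24% of all tested genes in limma. Between Prm2-/- and Prm2+/-, 0 members were called (background 0.148% higher and 0.0269% lower). Here 5 members had an unadjusted p under 0.05, Kif3a, Ift88 and Kif17 higher and Kif13a and Kif5b lower in Prm2-/-, beside 3.21% higher, 2.23% lower and 5.44% in either direction of all tested genes. edgeR and DESeq2 counted 4 members each, beside 767 and 678 of 14893 tested genes. With only the 6 samples compared DESeq2 counted 3, beside 790 of 14893. The comparisons share groups, so a gene that stands out in both comparisons of Prm2-/- does so partly through the same 3 libraries. Libraries without overlap were found for 3 members between Prm2+/- and Prm2+/+ (background 9.44%) and for 7 between Prm2-/- and Prm2+/- (background 14.7%).

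The size of change that these data leave room for differed between members. For Prm2-/- against Prm2+/+, the 95% interval of the LFC lay wholly within 0.5 of 0 in 18 tested members and within 1 of 0 in 39. The intervals of Kif3b, Kif17, Kif9, Kif27, Kif2b, Ift20, Ift57 and Ift74 were among these 18, which is a bound on their difference and no proof of equality. Widest were the intervals of Kif7, Kif1bp and Ift43, each of which had libraries at a separate low level.

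**Figure D1:**
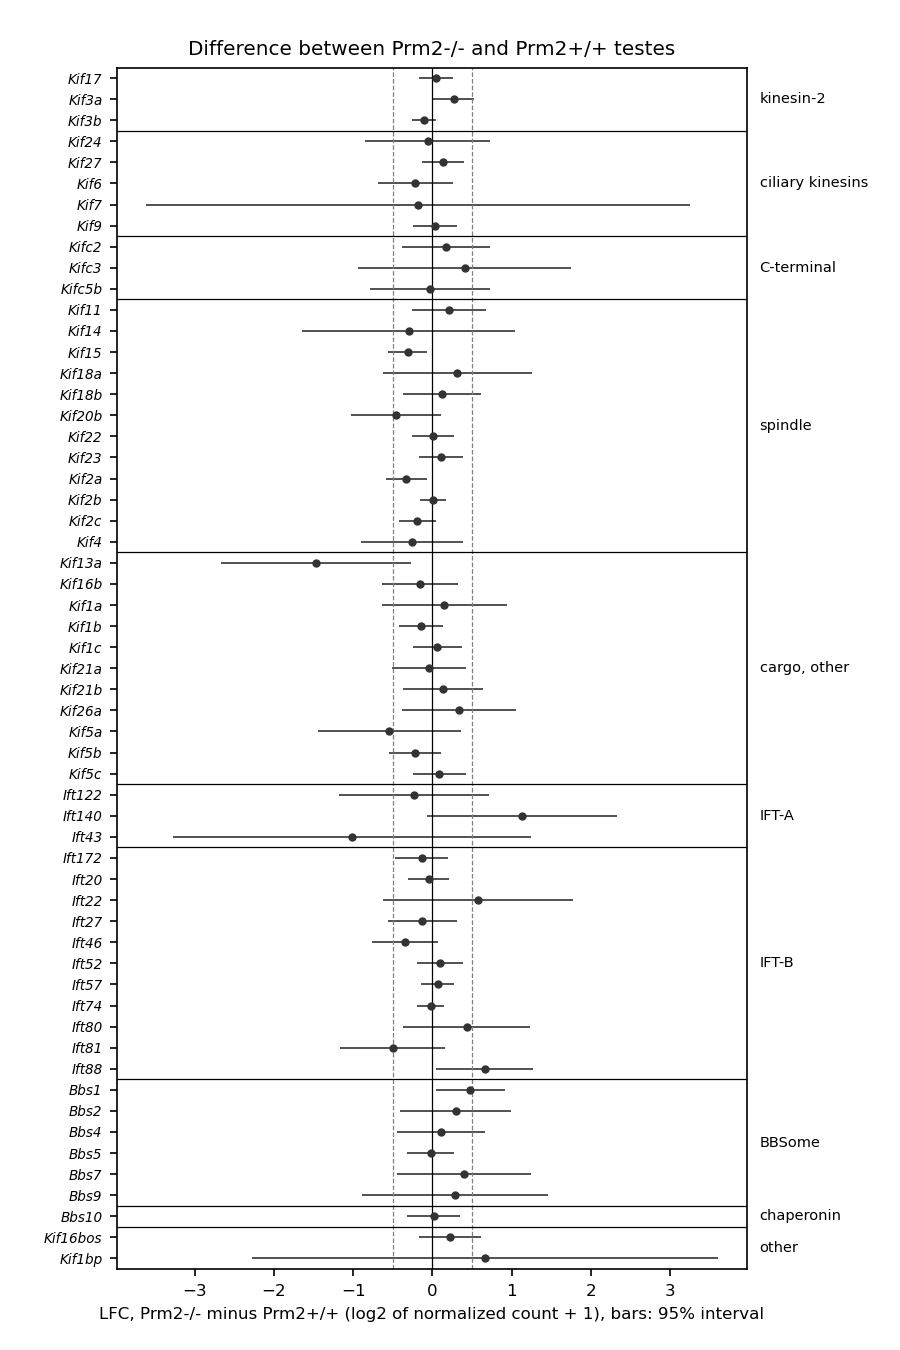
LFC of Prm2-/- against Prm2+/+ for the 57 tested members, grouped by role, on the log2(normalized count + 1) scale. Points are limma estimates from 3 libraries per genotype, bars are 95% intervals and dashed lines mark an LFC of 0.5 in either direction; 51 of the bars cross 0 and the widest belong to Kif7, Kif1bp and Ift43.

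The kinesin-2 motors drive IFT trains towards the tip of a cilium or flagellum. Kif3a (chromosome 11 of GRCm38, 53567379 to 53601967, plus strand) and Kif3b (chromosome 2, 153291413 to 153333390, plus strand) encode the paired motor subunits of the heterotrimeric motor. Kif3a had 537, 605 and 625 normalized counts in Prm2+/+, 559, 554 and 493 in Prm2+/- and 711, 632 and 795 in Prm2-/-. All 3 Prm2-/- libraries lay above the other 6, the lowest of them at 632 against 625 in the highest Prm2+/+ library. The LFC was 0.41 (95% interval 0.15 to 0.67, limma adjusted p = 0.711) against Prm2+/- and 0.27 (0.01 to 0.53, limma adjusted p = 0.666) against Prm2+/+, neither past the threshold over all genes.

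Kif3b went the other way in its means and by less. It had 1273, 1241 and 1346 normalized counts in Prm2+/+, 1200, 1269 and 1189 in Prm2+/- and 1170, 1222 and 1182 in Prm2-/-, where all values lay below those of Prm2+/+. Its 9 values spanned a narrow range, with an SD of 0.0649 on the log2 scale against a median SD of 0.307 over all tested genes. Kif17 (chromosome 4, 138250435 to 138301967, plus strand), the homodimeric kinesin-2, had 551, 543 and 566 in Prm2+/+, 460, 494 and 512 in Prm2+/- and 531, 552 and 633 in Prm2-/-. The heterozygous libraries of Kif17 were below all others, with an LFC of -0.18 against Prm2+/+ (limma adjusted p = 0.842) and, for Prm2-/- against Prm2+/-, 0.22 (limma adjusted p = 0.891). The gene of the accessory subunit that joins Kif3a and Kif3b, Kifap3, is no member and had 1304 to 1857 normalized counts.

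**Figure D2:**
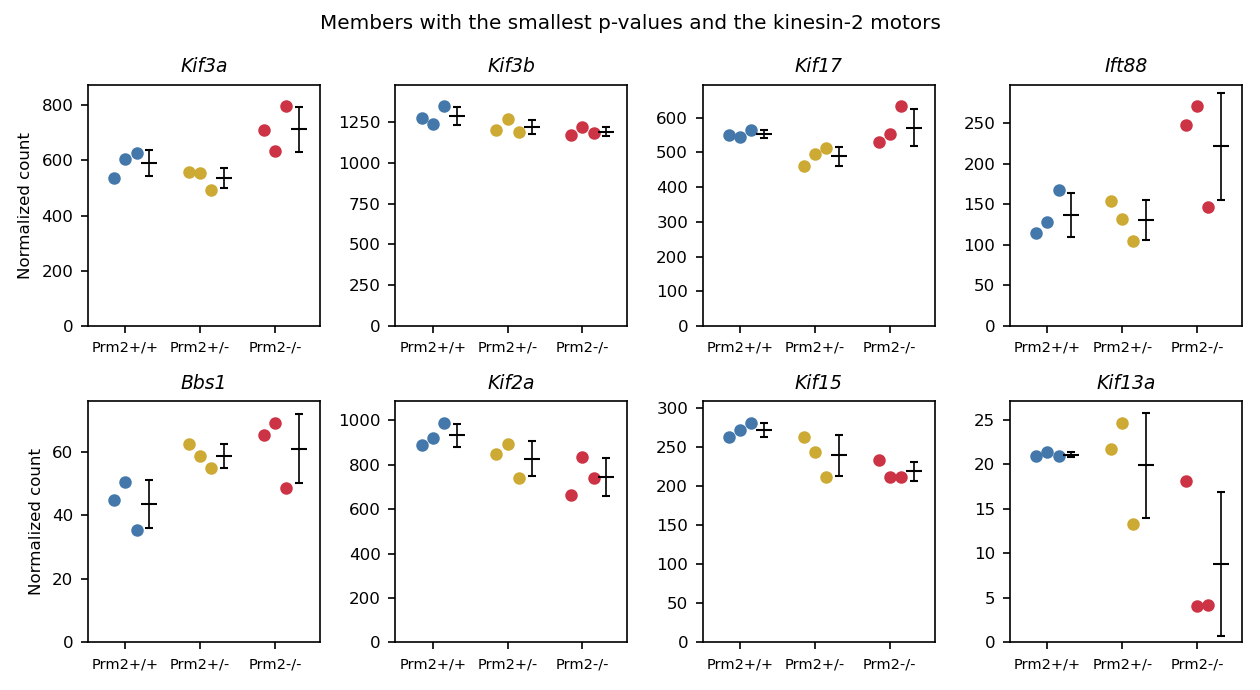
Normalized counts of the kinesin-2 motors Kif3a, Kif3b and Kif17 and of Ift88, Bbs1, Kif2a, Kif15 and Kif13a in each library, by genotype, with axes starting at 0. Coloured points are libraries and black bars are the mean ± SD (n = 3); the Prm2-/- points of Kif3a lie at 632 to 795, above all other libraries, while 2 of the 3 Prm2-/- points of Kif13a lie near 4.

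Kif3c, a relative that can replace Kif3b in the motor, was at 81.3 normalized counts in replicate 3 of Prm2+/- and at 0 to 2.74 in the other 8 libraries. It was therefore seen in 1 heterozygous library almost alone, and too few libraries held it for a test. A value of 0 in a library allows up to 3 counts, and such limits cover counting error only.

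Among the kinesins of cilia and flagella, Kif9 and Kif27 were the most abundant in counts. Kif9, a motor of the axoneme's central apparatus, had 900, 887 and 681 normalized counts in Prm2+/+, 866, 828 and 804 in Prm2+/- and 782, 903 and 828 in Prm2-/-. Kif27, which is needed for motile cilia, had 541, 562 and 452 in Prm2+/+, 458, 563 and 493 in Prm2+/- and 552, 575 and 577 in Prm2-/-. The genotypes overlapped for both genes, and in Prm2+/+ replicate 3 was the lowest library of each. Kif6 and Kif24, the latter a motor that keeps centrioles from growing cilia, had 37.5 to 67.4 and 13.7 to 36.5 normalized counts over the 9 libraries. Kif19a, which limits the length of cilia, was at 3.62 or below in every library.

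The C-terminal kinesins include Kifc1, known from the acrosome and the manchette, and its close relative Kifc5b. Kifc1 was at 8.57 in replicate 2 of Prm2+/+, at 0.95 in replicate 1 and at 0 in the other 7 libraries, including all of Prm2+/- and Prm2-/-. Kifc5b had 8.55, 11.8 and 11.0 normalized counts in Prm2+/+, 8.90, 11.9 and 9.72 in Prm2+/- and 15.4, 9.13 and 7.39 in Prm2-/-, with overlap between all genotypes. The exons of these paralogs share long identical stretches: 39.7% of all 50-base windows of Kifc1 and 37.4% of those of Kifc5b also occur in another gene, mostly in each other. These windows were taken over whole transcripts, and whether they include the 3′ ends, where the reads fall, was not examined. The split of reads between the paralogs may therefore be uncertain, and the near absence of Kifc1 counts is not taken as absence of its transcript. Kifc3, linked to epithelial junctions and the Golgi, ranged from 41.5 to 253 and Kifc2 from 31.1 to 53.9, with both extremes of Kifc3 in Prm2+/- libraries.

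The spindle, chromosome and cytokinesis kinesins had 12 tested members, of which between Prm2-/- and Prm2+/+ 2 were below an unadjusted p of 0.05 (7.33% of all tested genes) and 0 were called (0.154% higher and 0.0269% lower). Kif2a, Kif2b and Kif2c are kinesin-13 proteins, which take microtubules apart at their ends, and they were the most abundant of the list. Kif2a (chromosome 13, 106958996 to 107022126, minus strand) had 890, 919 and 989 normalized counts in Prm2+/+, 850, 893 and 740 in Prm2+/- and 666, 834 and 739 in Prm2-/-. All Prm2-/- libraries lay below all Prm2+/+ libraries, while Prm2+/- overlapped with both. The LFC was -0.33 (95% interval -0.58 to -0.07, limma adjusted p = 0.598).

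Kif2b, an intronless gene on chromosome 11 (91575315 to 91577558, minus strand), had 1591, 1604 and 1685 in Prm2+/+, 1659, 1591 and 1480 in Prm2+/- and 1569, 1686 and 1656 in Prm2-/-. With an SD of 0.0601 on the log2 scale it was the steadiest tested member. Kif2c had 850, 710 and 905 in Prm2+/+, 826, 819 and 809 in Prm2+/- and 728, 744 and 681 in Prm2-/-, where the Prm2-/- values were below all of Prm2+/- and overlapped with Prm2+/+. The LFC of Kif2c was -0.19 against either genotype (limma adjusted p = 0.719 against Prm2+/+ and 0.963 against Prm2+/-). Whether the 3 genes differ from each other in their response was not tested.

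Kif15, which helps to keep spindles bipolar, lies on chromosome 9 (122951046 to 123018733, plus strand). It had 262, 272 and 281 normalized counts in Prm2+/+, 263, 243 and 211 in Prm2+/- and 233, 212 and 211 in Prm2-/-. The Prm2-/- libraries lay below all Prm2+/+ libraries, with an LFC of -0.31 (-0.56 to -0.06, limma adjusted p = 0.602). Kif20a, a motor of cytokinesis, had 341 normalized counts in replicate 1 of Prm2+/-, 11.8 and 8.12 in replicates 1 and 2 of Prm2-/- and 0 in the other 6 libraries. Of the genes beside it, Brd8 at 228 to 414 and Cdc23 at 21.0 to 58.5 did not show this pattern, and Cdc23, which overlaps Kif20a on the other strand, was at 30.6 in the library where Kif20a was high.

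Of the cargo and other kinesins, Kif13a, which moves endosomes, had the lowest LFC of all tested members between Prm2-/- and Prm2+/+. Kif13a (chromosome 13, 46749087 to 46929867, minus strand) had 20.9, 21.4 and 21.0 normalized counts in Prm2+/+, 21.8, 24.7 and 13.3 in Prm2+/- and 18.1, 4.06 and 4.22 in Prm2-/-. Replicates 2 and 3 of Prm2-/- were low and replicate 1 was close to the other genotypes. The LFC was -1.47 (-2.67 to -0.28, limma adjusted p = 0.604) against Prm2+/+ and -1.35 (limma adjusted p = 0.887) against Prm2+/-, and 153 recovered counts over all 9 libraries stand behind it. Without replicate 1 of Prm2-/- these LFCs were -2.10 (limma adjusted p = 0.111) and -1.98 (limma adjusted p = 0.149), and over all libraries left out in turn they reached -1.15 and -1.02. It was the only member that both lay apart between Prm2-/- and Prm2+/+ and had an LFC beyond 0.5.

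Kif5b, the conventional kinesin heavy chain of most cells, had 282, 274 and 305 in Prm2+/+, 362, 316 and 262 in Prm2+/- and 235, 282 and 225 in Prm2-/-. Its LFC between Prm2-/- and Prm2+/- was -0.33 (limma adjusted p = 0.915), with overlapping libraries. Kif1b, a vesicle and mitochondria motor, ranged from 130 to 173 and Kif21a, which damps microtubule growth, from 73.3 to 124, and their genotypes overlapped. Kif12 was at 0 in all 9 libraries, and Kif13b and Kif26b did not exceed 11.2 and 7.39.

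**Figure D3:**
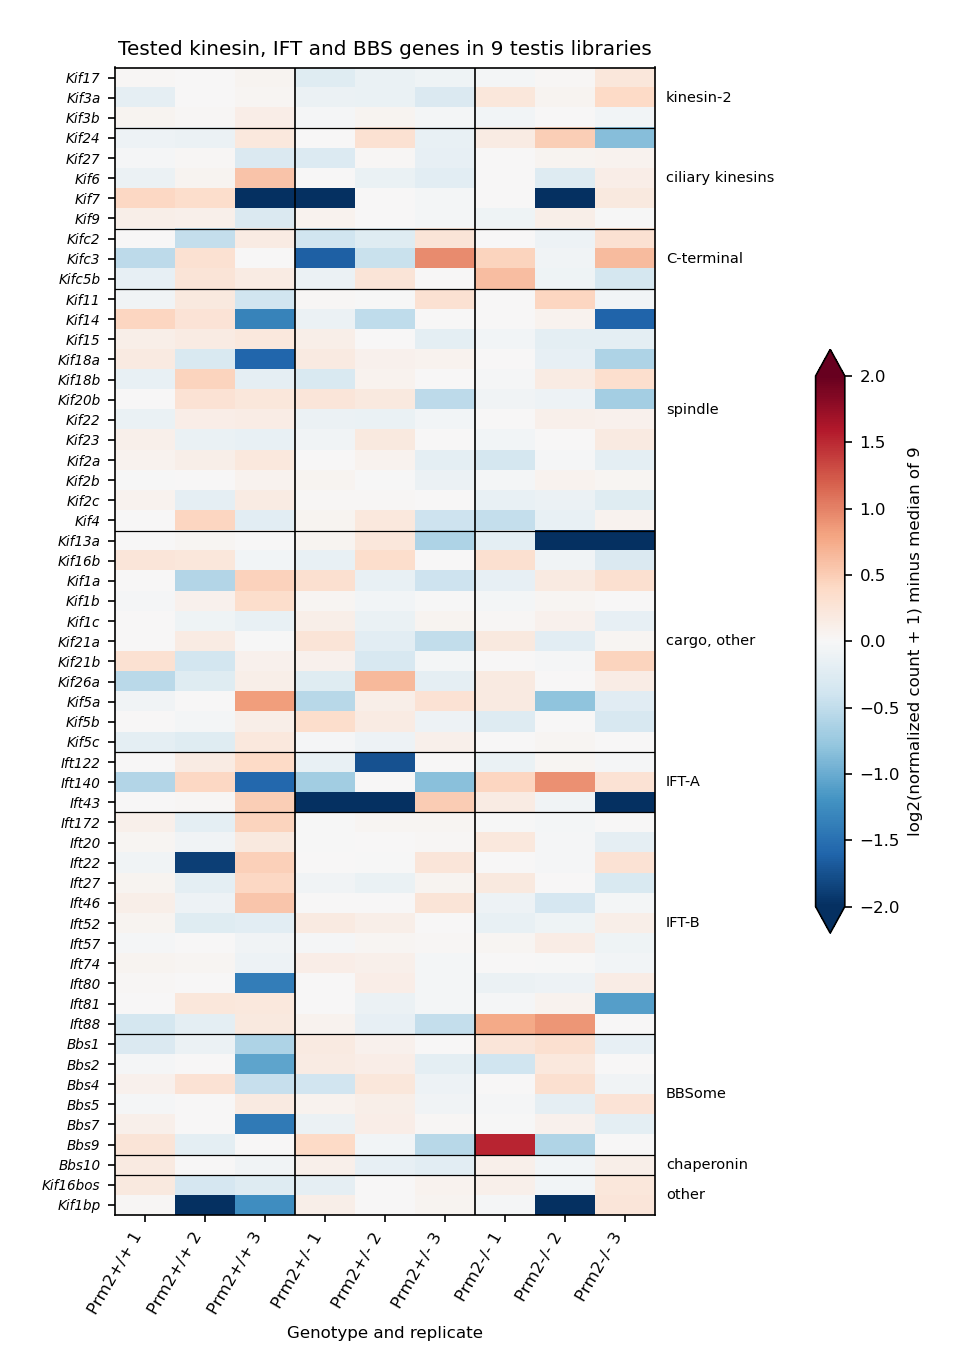
log2(normalized count + 1) of the 57 tested members in each of the 9 libraries, as the difference from the gene's median over the libraries, with genes grouped by role and colours limited to 2 log2 units in either direction. Dark blue cells, such as those of Ift43, Kif1bp and Kif7, are single libraries at a low level, and they occur in each of the 3 genotypes.

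The IFT-A complex serves the way back from the tip, and Ift140 and Ift122 belong to the core of the complex while Ift43 is a peripheral subunit. Ift140 (chromosome 17, 25016085 to 25099495, plus strand) had 7.60, 16.1 and 3.31 normalized counts in Prm2+/+, 6.92, 11.9 and 6.19 in Prm2+/- and 16.3, 23.3 and 14.8 in Prm2-/-. The Prm2-/- libraries lay above all Prm2+/- libraries and overlapped with Prm2+/+, and no more than 108 recovered counts over the 9 libraries stand behind these values. For Prm2-/- against Prm2+/+ the LFC of Ift140 was 1.13 (-0.07 to 2.33, limma adjusted p = 0.701), the highest of all tested members in that comparison. Ift122 had 817, 917 and 1077 in Prm2+/+, 736, 242 and 815 in Prm2+/- and 741, 840 and 803 in Prm2-/-. Replicate 2 of Prm2+/- was low by itself, and the LFC of Prm2+/- against Prm2+/+ went from -0.82 (limma adjusted p = 0.842) to -0.27 without it.

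Ift43 (chromosome 12, 86082541 to 86162459, plus strand) split into separate levels. It had 511, 521 and 719 normalized counts in Prm2+/+, 91.0, 76.7 and 725 in Prm2+/- and 575, 485 and 82.4 in Prm2-/-. The low level, at 76.7 to 91.0, thus held 2 heterozygous libraries and 1 deficient one, and the high level, at 485 to 725, held libraries of all genotypes. The LFC was -1.74 (limma adjusted p = 0.842) for Prm2+/- and -1.01 (limma adjusted p = 0.791) for Prm2-/-, each against Prm2+/+. It went to -2.77 for Prm2+/- without the high replicate 3 of that genotype and to -0.13 for Prm2-/- without the low replicate 3 of that one. Tgfb3, the nearest gene with counts, ranged from 9.64 to 32.7 and was not low in the same libraries.

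The IFT-B complex serves the way outwards, and its genes held most of the IFT counts. Ift74, which with Ift81 binds tubulin, had 2028, 2014 and 1824 normalized counts in Prm2+/+, 2139, 2092 and 1905 in Prm2+/- and 1950, 1942 and 1880 in Prm2-/-. Ift20, which also works at the Golgi, had 1427, 1323 and 1600 in Prm2+/+, 1387, 1395 and 1419 in Prm2+/- and 1615, 1377 and 1237 in Prm2-/-. Ift172 had 1120, 914 and 1428 in Prm2+/+, 1040, 1080 and 1075 in Prm2+/- and 1041, 1019 and 1048 in Prm2-/-. The genotypes overlapped for all 3 genes, and for Ift172 both the lowest and the highest of the 9 values were in Prm2+/+, in replicates 2 and 3.

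Ift88 (chromosome 14, 57424062 to 57517936, plus strand), a core subunit without which flagella fail to form, had 115, 129 and 168 normalized counts in Prm2+/+, 154, 132 and 105 in Prm2+/- and 248, 271 and 147 in Prm2-/-. Replicates 1 and 2 of Prm2-/- were above the other 7 libraries, and replicate 3 lay within the range of the controls. The LFC was 0.66 (0.05 to 1.27, limma adjusted p = 0.650) against Prm2+/+ and 0.73 (0.12 to 1.35, limma adjusted p = 0.878) against Prm2+/-. Ift88os, which overlaps Ift88 on the other strand, was at 1.83 or below in every library. The small subunits Ift27 and Ift52 had 87.6 to 145 and 149 to 200 normalized counts, with overlap between Prm2-/- and Prm2+/+, and Hspb11, the gene of Ift25, the partner of Ift27, had 132 to 181 apart from 38.7 in replicate 3 of Prm2+/+.

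BBSome members were lower in abundance, with the exception of Bbs5. Bbs1 (chromosome 19, 4886878 to 4906628, minus strand), which recruits the coat to membranes, had 44.7, 50.4 and 35.4 normalized counts in Prm2+/+, 62.3, 58.5 and 54.8 in Prm2+/- and 65.2, 69.0 and 48.6 in Prm2-/-. The heterozygous libraries were all above Prm2+/+, while replicate 3 of Prm2-/- fell inside its range. The LFC was 0.48 (0.04 to 0.91, limma adjusted p = 0.649) for Prm2-/- and 0.43 (limma adjusted p = 0.842) for Prm2+/-, each against Prm2+/+, and without replicate 3 of Prm2+/+ these were 0.34 and 0.30.

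Of the other subunits, Bbs5 had 487, 496 and 559 normalized counts in Prm2+/+, 520, 541 and 475 in Prm2+/- and 489, 438 and 601 in Prm2-/-. Bbs2 had 86.5, 87.9 and 42.0 in Prm2+/+ and 66.1 to 101 in the other 6 libraries, and Bbs4 had 70.7 to 122 over all 9. Bbs7 had 55.2 in replicate 3 of Prm2+/+ and 130 to 163 in the other 8 libraries. The same library was thus the lowest for Bbs1, Bbs2, Bbs4 and Bbs7, and the genotypes overlapped for Bbs2, Bbs4, Bbs5 and Bbs7. Bbs9 was high in replicate 1 of Prm2-/- alone, at 122 against 27.4 to 55.4 elsewhere, and Bbs10 lay between 45.1 and 59.9.

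Per kilobase of exon, Ift20 led the members with a mean of 931 normalized counts over the 9 libraries, followed by Ift74 at 744, Kif2b at 719, Kif3b at 219 and Bbs5 at 209, leaving out Ift43, whose mean of 255 pools its separate levels. Ift74 and Kif2b were neighbours in this order that did not separate: their means in Prm2+/+ were 736 and 725 per kilobase. Without this scaling the order differed: Ift74 led with a mean of 1975, followed by Kif2b at 1613 and Ift20 at 1420. Since the reads come from the 3′ end, their number need not grow with exon length, and the authors' counting works from coverage. Such a scale by length is therefore at most a rough guide to levels.

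Separate levels were a feature of several members. In 6 of the 65, the sorted log2(normalized count + 1) values of the 9 libraries had a gap of 2 or more between neighbours, namely Ift43, Kif1bp, Kif7, Kif20a, Kif3c and Kifc1. Of the 57 tested members 3 were among them, 5.26%, beside 13.7% of all tested genes, and the tested members also varied less, with a median SD over the 9 libraries of 0.246 on the log2 scale against 0.307. Members and all tested genes were not matched for abundance in this. Kif1bp (chromosome 10, 62538626 to 62578457, minus strand) had 184, 8.57 and 76.2 normalized counts in Prm2+/+, 198, 182 and 188 in Prm2+/- and 178, 13.2 and 214 in Prm2-/-. Its low libraries were replicates 2 of Prm2+/+ and of Prm2-/-, with replicate 3 of Prm2+/+ in between. Ddx21, 1794 bases away, had 367 to 541 and was low in neither.

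Kif7, which acts at the ciliary tip in Hedgehog signalling, was at 0 in replicate 3 of Prm2+/+, replicate 1 of Prm2+/- and replicate 2 of Prm2-/- and at 8.84 to 12.4 in the other 6 libraries. One library of each genotype was thus at 0, and the LFC of Prm2-/- against Prm2+/+ was -0.18 with an interval from -3.62 to 3.25 (limma adjusted p = 0.988). For Kif1bp the LFC was 0.67 (-2.28 to 3.61, limma adjusted p = 0.901). Among the tested members, Ift22 was next outside the gap of 2, at 103 in replicate 2 of Prm2+/+ and 364 to 530 elsewhere. Ift122 followed with its single low heterozygous library. Of the members without a test, Kif26b and Kif19a, both with few counts, had gaps of 1.90 and 1.65. The low libraries differed from gene to gene, and what sets the levels was not tested.

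**Figure D4:**
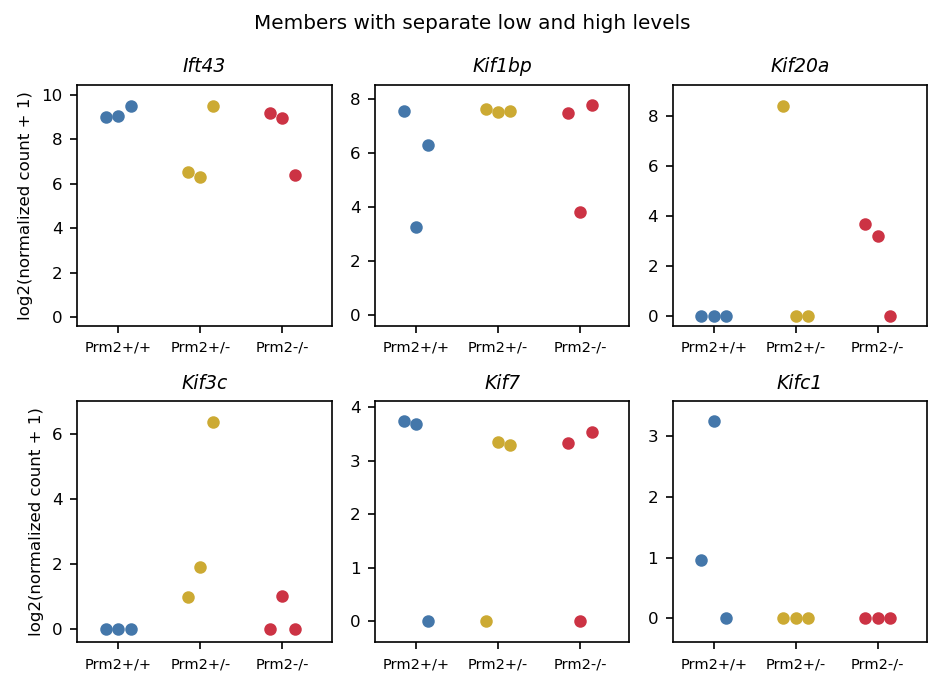
log2(normalized count + 1) in each library, by genotype, of the 6 members whose levels were separated by a gap of 2 or more. Points are single libraries; Ift43 is low in 2 Prm2+/- and 1 Prm2-/- library, Kif1bp in 1 Prm2+/+ and 1 Prm2-/- library, Kif7 is at 0 in 1 library of each genotype, and Kif20a, Kif3c and Kifc1 each have 1 library far above the rest.

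Genes that work with the members were described from lists. Of 28 genes of further IFT and BBSome subunits, the retrograde dynein, kinesin light chains and ciliary GTPases, all 28 were tested and 0 were called in any of the 3 comparisons. At an unadjusted p under 0.05 there were 2 between Prm2-/- and Prm2+/+, Wdr19 and Arl3, both lower in Prm2-/-, beside 7.33% of all tested genes, and 0 in the other comparisons. Wdr19, an IFT-A core subunit, was at 203 in replicate 2 of Prm2+/+ and at 39.6 to 65.2 in the other 8 libraries, and the remaining Prm2+/+ libraries, at 55.1 and 65.2, were also above the Prm2-/- libraries, at 39.6 to 46.2. Arl3, a GTPase that releases cargo in cilia, had 1547, 1455 and 1586 in Prm2+/+, 1354, 1506 and 1542 in Prm2+/- and 1393, 1359 and 1267 in Prm2-/-, with an LFC of -0.19. The median LFC of the 28 between Prm2-/- and Prm2+/+ was 0.05.

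Of 24 genes of the manchette and the head-tail coupling, 23 were tested, 0 were called and 0 had an unadjusted p under 0.05 in any of the 3 comparisons. Their median LFC between Prm2-/- and Prm2+/+ was -0.01. Hook1, which links the manchette to the nucleus, had 1601, 776 and 689 normalized counts in Prm2+/+, 1083, 829 and 662 in Prm2+/- and 1527, 878 and 980 in Prm2-/-. Meig1, which takes part in manchette transport, had separate levels of 2628 to 3110 and 10072 to 15459, and its high level held 1 Prm2+/+, 2 Prm2+/- and 1 Prm2-/- library.

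A single library at 1 log2 unit or more below each of the other 8 was found for 5 tested members, namely Ift22, Ift122, Kifc3, Bbs7 and Ift80, beside 12.1% of all tested genes. Replicate 3 of Prm2+/+ was that library for a larger share of the partners. Of the 51 tested partners 10 were low there in this way (19.6%), beside 2 of the 57 tested members, Bbs7 and Ift80 (3.51%), and 6.88% of all tested genes. Among the 10 were Klc1, a kinesin light chain, at 0 against 68.4 to 86.0 elsewhere, and Spag16, a central apparatus protein, at 57.5 against 513 to 680. Ift80 was at 75.1 there and at 182 to 220 in the other libraries. These counts are descriptions of a library noticed in the data, and no test was made.

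The promoters of members were read for the X-box, the element bound by RFX factors in many cilia genes, using its core motif GTTGCCA on both strands from 250 bases before to 50 bases after each RefSeq start (GRCm38.p6). A promoter was at hand for 52 members, of which 9 held the motif (17.3%), beside 5.02% of 27025 genes with a promoter. Restricted to tested genes it was 9 of 48 members (18.8%) beside 5.75% of 10655 genes. The 9 were Kif2a, Kif9, Kif16b, Kif18a, Kif23, Kif24, Ift27, Ift88 and Bbs1, and the values of Kif2a, Kif9, Kif24, Ift27, Ift88 and Bbs1 are given above. A match describes these letters and is not a binding site. Stretches upstream of the start are shown for 3 kinesins as examples of how the motif sits in its surroundings, with the motif in capitals:
Kif18a, chr2:109280638-109280704, plus strand: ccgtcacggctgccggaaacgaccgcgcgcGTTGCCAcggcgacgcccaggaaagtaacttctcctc
Kif23, chr9:61946849-61946915, minus strand: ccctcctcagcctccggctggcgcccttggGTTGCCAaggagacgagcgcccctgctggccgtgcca
Kif16b, chr2:142901653-142901714, minus strand: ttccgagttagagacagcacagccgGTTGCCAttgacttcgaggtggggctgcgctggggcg

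None of these 3 genes had an unadjusted p under 0.05 in any comparison. Kif18a had 80.8, 57.9 and 23.2 normalized counts in Prm2+/+, 81.1, 75.8 and 75.1 in Prm2+/- and 71.5, 63.9 and 46.5 in Prm2-/-. Kif23 had 215 to 274 and Kif16b 41.2 to 64.9 over the 9 libraries.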

How the data were processed

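Testis RNA of 9 males was measured with QuantSeq 3′ libraries. According to the paper and the submitters' processing notes, the authors mapped reads to GRCm38 with HISAT2 2.1 after Trim Galore 0.4.5, quantified with StringTie 1.3.3, removed pseudogenes and used DESeq2. The values they deposited are a signal: normalized counts, obtained by the authors from counts through 1 size factor per library. Dividing by the smallest step of each library recovered whole counts (100% of values within a relative tolerance of 1e-06), less surely for replicate 1 of Prm2+/-, whose step is near 1. StringTie derives counts from coverage, which may scale them otherwise than reads, and whether strand was used in counting was not given in the sources used here; 38 of the 65 members overlap another gene.

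Genes were kept by filterByExpr, and limma (lmFit, eBayes with trend) was fitted to log2 of the normalized count plus 1 in all 9 libraries with genotype as the only term, with Benjamini-Hochberg adjustment over 14893 genes. The labels do not say that equal replicate numbers mark a shared animal or day, and the deviations of same-numbered libraries correlated at -0.04 to 0.04. Positions are from GENCODE M21, matched for 38520 rows. Genes at separate levels, non-overlapping libraries and role lists were counted as described. The steps were tested on simulated data.

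The members, lists and rules were chosen with earlier results of these data known. Genes named with values are the 3 most abundant of each role, the 5 with the smallest p of each comparison, those apart between Prm2-/- and Prm2+/+ with an LFC beyond 0.5, those with a gap of 2 and 15 genes known from spermatids. Kif12, Kif13b, Kif16b, Kif18a, Kif19a, Kif20b, Kif23, Kif24, Kif26b, Ift88os, Bbs9, Ift22, Ift57, Ift80 and the partner genes outside this rule were named after their values were seen. The LFCs of Kif2c, Ift140 and Arl3 were also given after their values were seen. Izumo1, Insl3 and Cluap1 were not analysed here. Alternatives covered TMM factors, pseudocounts of 0.5 and 5, filters on low counts, only the 6 samples compared, edgeR's quasi-likelihood test, DESeq2, a replicate block and leaving out each library. Fits ran in R 4.3.3 with edgeR 4.0.16, limma 3.58.1 and DESeq2 1.42.0, and tables and plots in Python 3.11.15 with pandas 2.3.3, matplotlib 3.10.9 and numpy 2.4.6.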

Additional observations from a re-analysis of the deposited data

How the results depend on the processing

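In each of the 3 comparisons 0 members were called in all 20 settings, the 9 that leave out a library included. The lowest adjusted p of any member ranged over the settings from 0.111 to 0.799 between Prm2-/- and Prm2+/+, from 0.634 to 1 between Prm2+/- and Prm2+/+ and from 0.109 to 1 between Prm2-/- and Prm2+/-. Members at an unadjusted p under 0.05 were less stable in number, and the number of all tested genes at this level varied as well. Between Prm2-/- and Prm2+/+ the members numbered 6, but 2, 3 and 3 without replicate 1, 2 or 3 of Prm2-/-, 3 without replicate 2 of Prm2+/- and 3 with only the 6 samples compared. Leaving out replicate 2 of Prm2+/+ or replicate 3 of Prm2+/- gave 7. All tested genes at this level numbered 1091, but 815, 814 and 877 without replicate 1, 2 or 3 of Prm2-/-. They numbered 940 without replicate 2 of Prm2+/-, 913 with only the 6 samples compared, 1312 without replicate 2 of Prm2+/+ and 1050 without replicate 3 of Prm2+/-. Between Prm2-/- and Prm2+/- the members numbered 5, but 3 without replicate 1 of Prm2+/+, 2 and 1 without replicates 1 or 2 of Prm2+/- and 3, 2 and 2 without replicate 1, 2 or 3 of Prm2-/-. In this comparison there were 7 members without replicate 3 of Prm2+/+, 7 with any count above 0 as the filter and 6 without replicate 3 of Prm2+/-. All tested genes numbered 810 here, but 626, 636 and 599 without replicate 1, 2 or 3 of Prm2-/-. Without replicate 1, 2 or 3 of Prm2+/- they numbered 758, 669 and 620, and without replicate 1 or 3 of Prm2+/+ 763 and 1241. Between Prm2+/- and Prm2+/+ the count of 0 members became 2 and 1 when Prm2+/+ lost its replicate 1 or 2, 1 and 2 when Prm2+/- lost its replicate 1 or 3, and 1 when Prm2-/- lost its replicate 3. It was 1 under the replicate block and 2 with any count above 0 as the filter. All tested genes numbered 632 in this comparison, but 924 and 906 without replicate 1 or 2 of Prm2+/+. They numbered 540 and 559 without replicate 1 or 3 of Prm2+/-, 559 without replicate 3 of Prm2-/- and 654 under the replicate block.

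Over all genes, DESeq2 called 101 higher and 30 lower between Prm2-/- and Prm2+/+ (limma 23 and 4), 29 and 30 between Prm2+/- and Prm2+/+ (limma 9 and 3) and 88 and 22 between Prm2-/- and Prm2+/- (limma 22 and 4). The genes refitted were picked from these same libraries for small p-values or separate levels, so their kept directions are no test of stability. Of 338 refitted LFCs, 333 kept their direction. The other 5 came from leaving out a library and belonged to Prm2-/- against Prm2+/+ of Kif7, with a range of -1.42 to 0.96, and of Kif1bp, with a range of -0.55 to 1.93, whose low libraries are few. Without replicate 1 of Prm2+/+ or without replicate 2, the LFC of Kif7 was 0.45 or 0.42. Without replicate 3 of Prm2-/- that of Kif1bp was -0.03. The replicate block left 0 members called in each comparison, and it changed the calls over all genes from 27 to 15 between Prm2-/- and Prm2+/+, from 12 to 6 between Prm2+/- and Prm2+/+ and from 26 to 14 between Prm2-/- and Prm2+/-. By their near-0 correlations the numbers were not taken to pair the libraries, although in 10 of 18 cases, where 1 in 3 would be the share with no pairing, a library correlated best with its own number in another genotype. Members with few counts, such as Kifc5b, Kif7 and Ift140, limit what could be detected.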
